A study of Homo sapiens with 8 samples.

Results

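The 10 genes described here encode 6 binding proteins of the insulin-like growth factors (IGFBP2, IGFBP3, IGFBP4, IGFBP5, IGFBP6 and IGFBP7), 3 receptors of the insulin and IGF family (IGF1R, IGF2R and INSR) and the adaptor IRS1. They were chosen by gene symbol among the 47591 genes of the table, with earlier results of these data known, so their differences between the lines are given as a description, with no p-value. Of the 10 genes, 8 passed the filter on low values (10 or more normalized counts on average over the 8 libraries), as did 18947 genes in all. IGFBP7 passed it only through the line in which it was highest, and IGFBP5 and IRS1 were listed at 0 in every library. A normalized count is the count of a gene in a library divided by a size factor of the library, and it is not scaled to gene length.

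The cells were SH-SY5Y, a human neuroblastoma line, and polyadenylated RNA was sequenced from 8 libraries. G2 cells (3 libraries) carried CRISPR/Cas9 with a guide against PRPF40B, a pre-mRNA splicing factor, SCR cells (3 libraries) carried CRISPR/Cas9 with a scramble guide, and WT cells (2 libraries) were not edited. Edited cells were selected with puromycin and raised from colonies by limiting dilution. The G2 and SCR lines were kept in puromycin, which the methods do not name for WT. In the sequenced libraries PRPF40B was edited with 1 guide in 1 line. An effect of the guide and a property of the G2 line cannot be told apart in them, and nor can editing and puromycin in the comparisons with WT. Outside these libraries, the study measured selected genes by RT-qPCR in G1, a line made with another guide, and in G2 cells given PRPF40B back. It reports intermediate levels in G1 and a partial return of many targets. In bulk RNA, fewer cells of a type and less RNA per cell cannot be told apart either. The libraries are numbered as biological replicates in their titles, and whether they came from separate cultures is not given. The standard errors and p-values thus measure the spread between these libraries only, with 1 estimate per gene shared by the 3 lines.

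Insulin and the 2 IGFs act through the receptor tyrosine kinases INSR and IGF1R, which signal through IRS and SHC adaptors to the PI3K-AKT and MAPK pathways. IGF2R, also the cation-independent mannose 6-phosphate receptor, takes IGF2 up for degradation in lysosomes and sorts lysosomal enzymes. The secreted IGFBPs bind the IGFs outside the cell, where they carry them or keep them from IGF1R, and proteases that cut the IGFBPs set the ligand free.

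Each library held between 59804395 and 81080747 counts. These were not taken as numbers of fragments, since small counts were mostly multiples of 3, as given further on for IGFBP7. PRPF40B itself was at 866 ± 44.5 normalized counts in G2 (SD, n = 3), 1676 ± 8.79 in SCR (n = 3) and 1820 ± 215 in WT (n = 2), and it fell in G2/SCR (log2 fold change -0.95 ± 0.08 SE, limma, Benjamini-Hochberg adjusted p = 7.4e-07) and also against WT (-1.07 ± 0.09, adjusted p = 7.89e-07). The noradrenergic neuroblastoma markers were expressed in all 3 lines, with summed values of 95109 to 103283 in G2, 187691 to 199964 in SCR and 211817 to 227227 in WT, and 8 of the 10 were called lower in either comparison of G2 (a call is defined further on). TH was near 0 in every line (means of 1.88, 14.0 and 16.9 in G2, SCR and WT). The 8 fibroblast markers, which include collagens and proteoglycans that mesenchymal cells also make, summed to 92547 to 95562 in G2, 10540 to 11008 in SCR and 5848 to 6789 in WT, with 6 of 8 called higher and 0 lower in each comparison of G2 and none at 0. The 8 readable mesenchymal neuroblastoma markers summed to 237569 to 242684 in G2, 110479 to 117774 in SCR and 80319 to 92561 in WT. In each comparison of G2, 7 of 8 were called higher, and TWIST1, not called, was lowest in G2. VIM made up most of these sums (means of 214430, 85197 and 59181). FN1, also on this list, was left out because it lies in the nearly empty stretch of chromosome 2 described further on. The 6 Schwann cell markers summed to 170 to 267 in G2, 387 to 594 in SCR and 428 to 463 in WT, with 1 called higher and 1 lower in each comparison of G2. S100B made up most of these sums (means of 162, 484 and 422), and SOX10 was at 0 in every line. The leukocyte and endothelial lists each summed to at most 64.2 in any library.

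The promoters of 4 members are shown because they include the binding proteins most raised in G2 among those well above the floor (IGFBP3 and IGFBP6), the raised receptor (IGF2R) and, for contrast, a binding protein with its lowest values in G2 (IGFBP4). Each is the 250 bases before the gene's start in RefSeq (GRCh38.p14), written 5′ to 3′ on the gene's strand, with capitals marking matches to a searched motif on either strand. The motifs searched were a TATA box (TATAAA), a GC box (GGGCGG, the letters bound by SP1), a CCAAT box (CCAAT), an AP-1 site (TGANTCA) and the E box of MYC and MAX (CACGTG).
IGFBP3 (chr7:45921273-45921522, minus strand): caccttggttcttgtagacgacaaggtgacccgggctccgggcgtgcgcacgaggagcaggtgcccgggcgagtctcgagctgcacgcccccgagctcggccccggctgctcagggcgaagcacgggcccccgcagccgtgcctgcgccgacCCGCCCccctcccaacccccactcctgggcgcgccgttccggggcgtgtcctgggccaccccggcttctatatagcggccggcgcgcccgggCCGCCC
IGFBP6 (chr12:53097417-53097666, plus strand): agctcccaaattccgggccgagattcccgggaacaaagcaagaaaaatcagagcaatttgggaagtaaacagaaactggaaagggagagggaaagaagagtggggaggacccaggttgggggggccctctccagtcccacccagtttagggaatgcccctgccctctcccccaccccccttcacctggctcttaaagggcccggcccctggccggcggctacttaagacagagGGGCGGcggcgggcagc
IGF2R (chr6:159968832-159969081, plus strand): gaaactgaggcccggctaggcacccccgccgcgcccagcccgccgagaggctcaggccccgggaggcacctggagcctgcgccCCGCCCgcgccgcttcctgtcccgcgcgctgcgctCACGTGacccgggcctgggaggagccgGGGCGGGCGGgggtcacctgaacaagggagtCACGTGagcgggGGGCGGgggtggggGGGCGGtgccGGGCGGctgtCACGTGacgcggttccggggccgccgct
IGFBP4 (chr17:40443200-40443449, plus strand): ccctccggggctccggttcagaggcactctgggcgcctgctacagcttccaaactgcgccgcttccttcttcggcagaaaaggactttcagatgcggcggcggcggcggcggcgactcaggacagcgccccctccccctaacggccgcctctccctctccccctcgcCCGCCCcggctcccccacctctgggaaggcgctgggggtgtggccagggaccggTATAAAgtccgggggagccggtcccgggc
The IGFBP3 promoter held 2 GC boxes and the IGFBP6 promoter 1, which began 17 bases before the start. The IGF2R promoter held 6 GC boxes, of which 2 overlap, and 3 E boxes of MYC and MAX. The IGFBP4 promoter held 1 GC box and the TATAAA letters 29 bases before the start. GC boxes were in 42.6% of the 35116 promoters of this length, TATAAA in 10.7%, CACGTG in 6.34%, CCAAT in 32.01% and the AP-1 letters in 6.57%. None of the 4 promoters held the AP-1 letters or CCAAT. A match is a run of letters and not a measured site, and a missing match says only that these letters are not in this window. The promoters of the members had a median GC content of 71.6% over 11 starts of 9 genes, against 58.0% over all promoters. IGFBP7 was not among the promoters used here.

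IGFBP3 (chr7:45912245-45921274 in hg38, minus strand), the main carrier of IGFs in serum, was the binding protein with the widest difference among those well above the floor. It was at 5976, 6244 and 5938 normalized counts in the G2 libraries, 1034, 1003 and 1129 in the SCR libraries and 777 and 719 in the WT libraries. All G2 libraries lay above all others, and the SCR libraries lay above both WT libraries. The means were 6052 ± 167 in G2, 1055 ± 65.6 in SCR and 748 ± 41.3 in WT (SD, n = 3, 3 and 2). The difference was 5.73-fold in G2/SCR (log2 fold change 2.52 ± 0.07 SE) and 8.09-fold in G2/WT (3.02 ± 0.08), while SCR/WT was 1.41-fold (0.50 ± 0.08). Scaling all libraries to the same total moved SCR/WT to 0.77, past the 1.5-fold threshold.

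IGFBP6 (chr12:53097655-53102344, plus strand), a binding protein with a preference for IGF2, had the same order of G2 above both controls. Its values were 2709.8, 2458 and 2655 normalized counts in G2, 679.7, 719 and 718 in SCR and 679 and 603 in WT. The G2 libraries stood apart, and SCR and WT met without overlapping, with the lowest SCR library at 679.7 and the highest WT library at 679.2. The means were 2608 ± 132, 706 ± 22.4 and 641 ± 54.1. G2 was 3.7-fold above SCR (log2 fold change 1.88 ± 0.08) and 4.07-fold above WT (2.02 ± 0.08), and SCR/WT was 0.14 ± 0.08.

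IGFBP7 (chr4:57030773-57110387, minus strand) was barely detected. This secreted relative binds IGFs weakly and is known for its expression in vessels and stroma. It was at 26.3, 21.9 and 32.2 normalized counts in the G2 libraries, which are 28, 20 and 30 counts before division by the size factors, at 0, 0 and 8.31 in SCR and at 0 in both WT libraries. Small counts in the table were mostly multiples of 3 (71.3% to 75.6% of the counts up to 30), so 9 counts, about 3 fragments, were taken as the floor of a library. A count of 0 then allows up to 11.2 normalized counts in WT, and the G2 mean of 26.8 ± 5.19 lay at least 2.4-fold higher than this floor of WT. The only SCR library above 0 held 11 counts, just over its floor. The fitted log2 fold change in G2/SCR, 3.71 ± 1.08, depends on the value of 1 added before the logarithm and was 1.58 with 10 added. IGFBP7-AS1, which overlaps IGFBP7 on the other strand, went the other way, at 32.9 ± 15.6 in G2, 56.5 ± 4.81 in SCR and 71.6 ± 12.8 in WT (limma, adjusted p = 0.0572 for G2/SCR and 0.0226 for G2/WT). The strand setting of the counting is not given in the sources used here, so reads in the overlap could belong to either gene.

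The sums of the fibroblast and mesenchymal marker lists were higher in the G2 libraries, which also held the highest IGFBP3, IGFBP6 and IGFBP7. DCN (37183 in G2, 1051 in SCR and 166 in WT) and COL3A1 (40955, 3348 and 253) were named after their values were seen. PDGFRA (1439, 1454 and 1765) and PDGFRB (2912, 2355 and 2911) were called in neither comparison of G2. TWIST1, of the mesenchymal list, was lowest in G2 (21105, 27740 and 26687). The part of these marker lists in the values of the binding proteins was not tested.

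IGFBP2 (chr2:216632828-216664441, plus strand) had the highest normalized counts of the 10 genes, and for it SCR and not G2 was the line that differed. IGFBP2 is a binding protein known for its expression in fetal and neural tissue. It was at 41300.4, 44598.5 and 45291 normalized counts in G2, 24544, 23600.1 and 24645 in SCR and 44489 and 36371 in WT. With the values as normalized, the SCR libraries were the lowest, and the G2 libraries overlapped with WT. The means were 43729.9 ± 2132 in G2, 24263 ± 576 in SCR and 40430.2 ± 5741 in WT. G2 was thus 1.8-fold above SCR (log2 fold change 0.85 ± 0.07) and 1.08-fold above WT (0.12 ± 0.08), while SCR was 1.67-fold below WT (-0.73 ± 0.08). The SCR/WT value fell short of the 1.5-fold call without WT replicate 1 (-0.58) and with all libraries at the same total (-0.45). Over the alternatives other than leaving out a library, the G2/WT value ran from 0.03 to 0.31.

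IGFBP4 (chr17:40443450-40457725, plus strand), which is known for holding IGFs back and is itself cut by the protease PAPPA, had the opposite order. Its values were 6564, 7283 and 7734 in G2, 8532, 8099 and 8554 in SCR and 11689 and 9631 in WT. With the values as normalized, the lines did not overlap, with G2 lowest and WT highest. The means were 7193 ± 590, 8395 ± 256 and 10659.7 ± 1455. The log2 fold changes were -0.23 ± 0.08 in G2/SCR, -0.56 ± 0.09 in G2/WT and -0.34 ± 0.09 in SCR/WT, none past 1.5-fold. Without WT replicate 2 the G2/WT value was -0.70, and without G2 replicate 3 it also passed 1.5-fold. Leaving out each library in turn moved it no closer to no difference than -0.42. Over the alternatives other than leaving out a library, G2/WT ran from -0.67 to -0.38 and SCR/WT from -0.41 to -0.06.

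**Figure D1:**
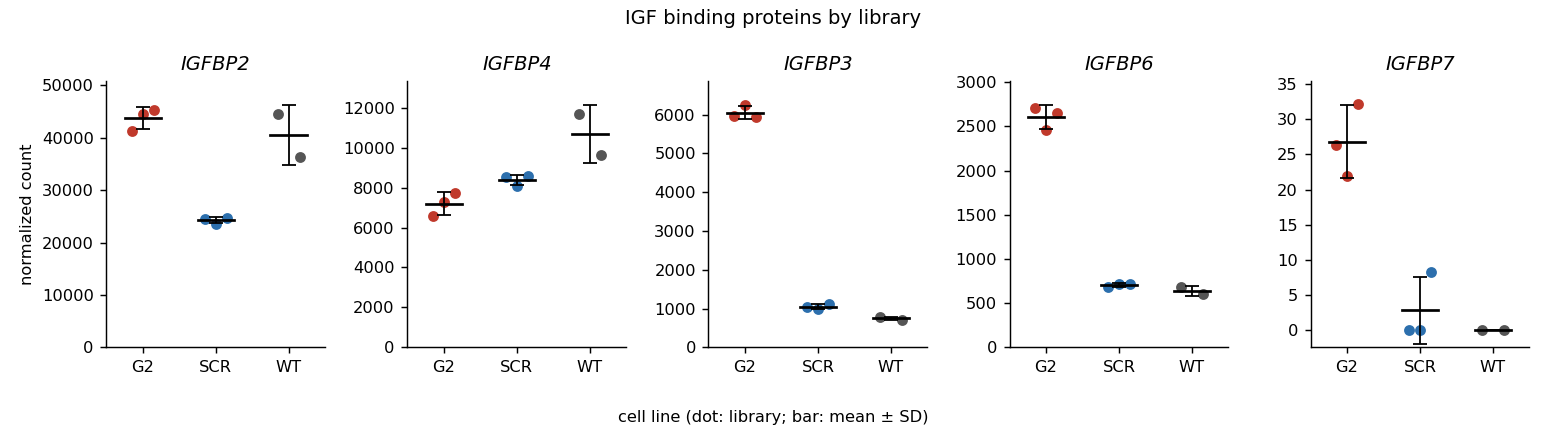
Normalized counts (vertical axes, from 0 or just below it for IGFBP7, each panel on its own scale) of 5 IGF binding proteins in the G2, SCR and WT lines, with a dot per library and the mean ± SD as bars. IGFBP3, IGFBP6 and IGFBP7 are highest in G2, IGFBP2 is lowest in SCR, and IGFBP4 is lowest in G2 and highest in WT.

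To compare levels between genes, the normalized counts were divided by the length of exon in kilobases (the union of a gene's exons in GENCODE). On this scale the binding proteins listed above 0 summed to 15760.1 ± 676 in G2, 9680.4 ± 243 in SCR and 14000.2 ± 1919.9 in WT. IGFBP2 was the largest share in every library, with means of 58.5% in G2, 52.9% in SCR and 60.9% in WT. IGFBP4 made up 20.7% ± 0.822 in G2, 39.3% ± 0.259 in SCR and 34.5% ± 0.0210 in WT. IGFBP6 made up 12.3% in G2, 5.42% in SCR and 3.41% in WT, and IGFBP3 8.42%, 2.39% and 1.18%. With the length of the longest transcript the IGFBP3 shares were larger, at 13.0%, 3.89% and 1.93%, in the same order. On the exon union IGFBP7 did not exceed 0.102% in any library. The shares of IGFBP4, IGFBP6 and IGFBP3 did not overlap between G2 and WT. With the values as normalized, the sums of G2 and WT overlapped, and the sums of SCR lay below those of both other lines. The normalized totals were larger in WT (7.72e+07 and 7.13e+07) than in G2 (6.50e+07 to 6.55e+07), so the overlap of the sums depends on the scaling. IGFBP5 is missing from these sums for the reason given further on.

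**Figure D2:**
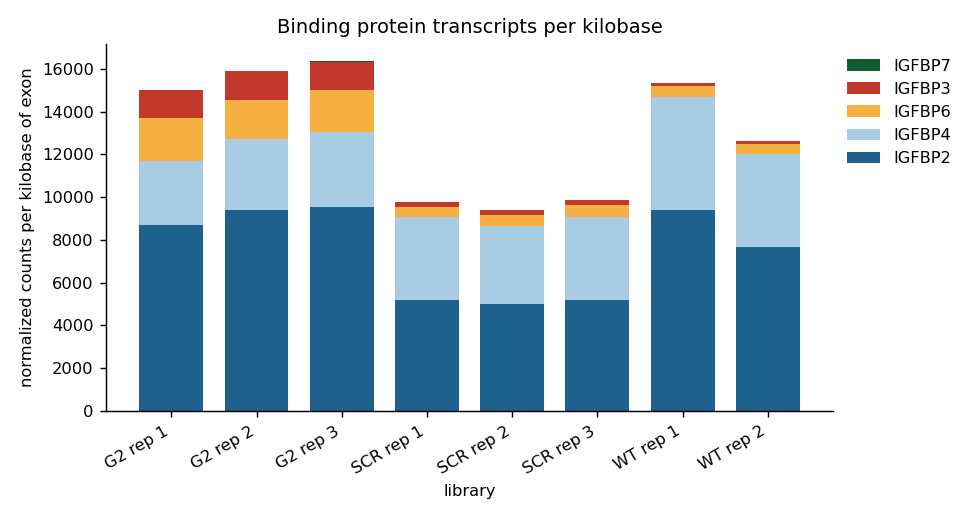
Normalized counts per kilobase of exon (vertical axis) of the binding proteins in each of the 8 libraries (horizontal axis), stacked by gene. The summed height is 15021 to 16347 in G2, 9404 to 9861 in SCR and 12643 to 15358 in WT, and the IGFBP6 and IGFBP3 segments are the thickest in G2.

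Among the receptors only IGF2R (chr6:159969082-160111504, plus strand) was past 1.5-fold in a comparison. It was at 17495, 17812 and 17140.4 normalized counts in G2, 12115, 10695 and 10764 in SCR and 8314 and 10159 in WT. All 3 G2 libraries were above all others, and the SCR libraries were above both WT libraries. The means were 17483 ± 336, 11191 ± 801 and 9236 ± 1304. G2 was 1.56-fold above SCR (log2 fold change 0.65 ± 0.07) and 1.89-fold above WT (0.93 ± 0.08), and SCR/WT was 0.28 ± 0.08. With all libraries at the same total, G2/SCR was 0.56 and no longer past 1.5-fold. AIRN, the RNA on the other strand of IGF2R, was listed at 0 in every library.

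IGF1R (chr15:98648539-98964530, plus strand), the receptor through which both IGFs signal, differed little. It was at 9296, 9122 and 9403.5 in G2, 8802, 8750.4 and 7943 in SCR and 7139 and 8751 in WT. The G2 libraries were the highest, and SCR and WT overlapped. The log2 fold changes were 0.13 ± 0.07 in G2/SCR, 0.23 ± 0.08 in G2/WT and 0.10 ± 0.08 in SCR/WT. IRAIN, an RNA transcribed against IGF1R from within its locus, was at 178 ± 9.75, 177 ± 36.5 and 144 ± 22.7 and passed the call in no comparison.

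INSR (chr19:7112261-7294414, minus strand), the insulin receptor, had the lowest level of the 3 receptors per kilobase. It was at 390.5, 396 and 417 in G2, 428, 494 and 474 in SCR and 346 and 475 in WT. The G2 libraries were below the SCR libraries, and the WT libraries lay 1 below all of G2 and 1 within the range of SCR. The log2 fold changes were -0.21 ± 0.12 in G2/SCR, -0.02 ± 0.13 in G2/WT and 0.19 ± 0.13 in SCR/WT. Per kilobase of exon, IGF1R was 18.0 ± 0.493 times INSR in G2, 14.3 ± 1.54 times in SCR and 15.2 ± 1.19 times in WT. IGF2R per kilobase was 1.16 ± 0.0401 times IGF1R in G2, 0.812 ± 0.0515 times in SCR and 0.717 ± 0.00159 times in WT. With the length of the longest transcript in place of the exon union these ratios of IGF2R to IGF1R were 1.62, 1.13 and 0.9996, so their order held and their level did not.

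**Figure D3:**
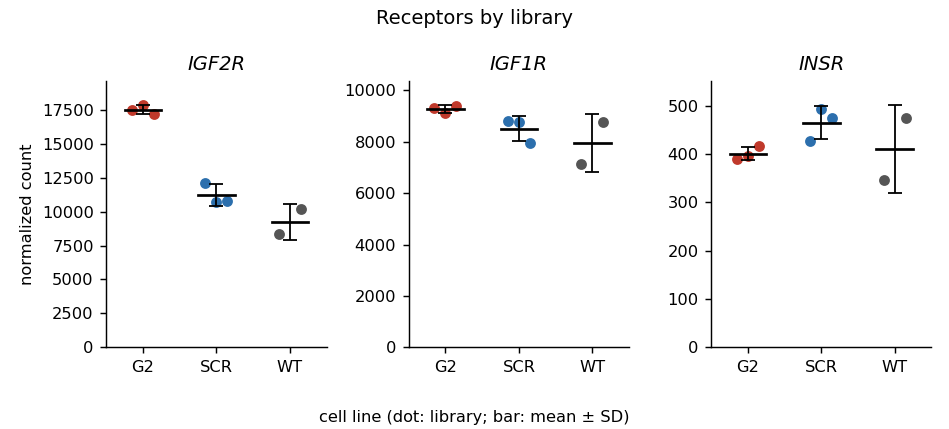
Normalized counts (vertical axes, from 0, each panel on its own scale) of IGF2R, IGF1R and INSR in the G2, SCR and WT lines, with a dot per library and the mean ± SD as bars. The IGF2R dots of G2, at 17140.4 to 17812, lie above all others, and the panels of IGF1R and INSR show small differences.

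IGFBP5 (chr2:216672105-216695549) and IRS1 (chr2:226731312-226799820) both lie on the minus strand of chromosome 2, in hg38, where the table as a whole is nearly empty. Between CWC22 and HJURP, from 180007297 to 233836702, 118 of 131 protein-coding genes on the minus strand had a mean under 10 (90.1%), and the highest mean was 459. On the plus strand of the same stretch 31 of 157 had a mean under 10 (19.7%), and on the minus strand of the rest of the chromosome 81 of 433 (18.7%). Genes that every cell uses were at or near 0 there too, with means over all libraries of 0.466 for NCL, 0.3496 for SF3B1 and 0 for HSPD1, while RPL37A, on the plus strand 129 kb from IGFBP2, was at 148836. IGFBP5 and IRS1 are therefore listed at 0 with no level that can be read from it. IGFBP2 lies next to IGFBP5 but on the plus strand. IRS2, the related adaptor on chromosome 13, was looked up for this reason after its values were seen and was at 12344 ± 364 in G2, 10818.5 ± 289.9 in SCR and 9217 ± 194 in WT. IRS2 was past 1.5-fold in no comparison.

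A gene was called where it differed by at least 1.5-fold with an unadjusted limma p of at most 0.05, a rule that for the members serves as a description only. In G2/SCR 5 of the 8 members that passed the filter were called (IGFBP2, IGFBP3, IGFBP6, IGF2R and, near the floor in the controls, IGFBP7), all higher. Of all genes tested 26.9% were called in G2/SCR, 15.1% higher and 11.8% lower. In G2/WT 4 members were called (IGFBP3, IGFBP6, IGFBP7 and IGF2R), all higher, beside 29.9% of all genes, 17.7% higher and 12.2% lower. In SCR/WT 1 member, IGFBP2, was called lower, beside 16.3% of all genes, 10.7% higher and 5.63% lower. The members were chosen with these results known, so nothing is read from their counts, and the comparisons share their libraries. Scaling all libraries to the same total moved the median log2 fold change of all genes from -0.01 to -0.10 in G2/SCR, from 0.0049 to 0.19 in G2/WT and from 0.0099 to 0.29 in SCR/WT. The calls of all genes were then 2485 higher and 2757 lower in G2/SCR, in place of 2858 and 2230, 4519 higher and 1446 lower in G2/WT, in place of 3353 and 2304, and 3972 higher and 409 lower in SCR/WT, in place of 2031 and 1066. Under this scaling IGFBP3 and IGFBP6 were called in both comparisons of G2, and IGF2R in G2/WT but not in G2/SCR (0.56).

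**Figure D4:**
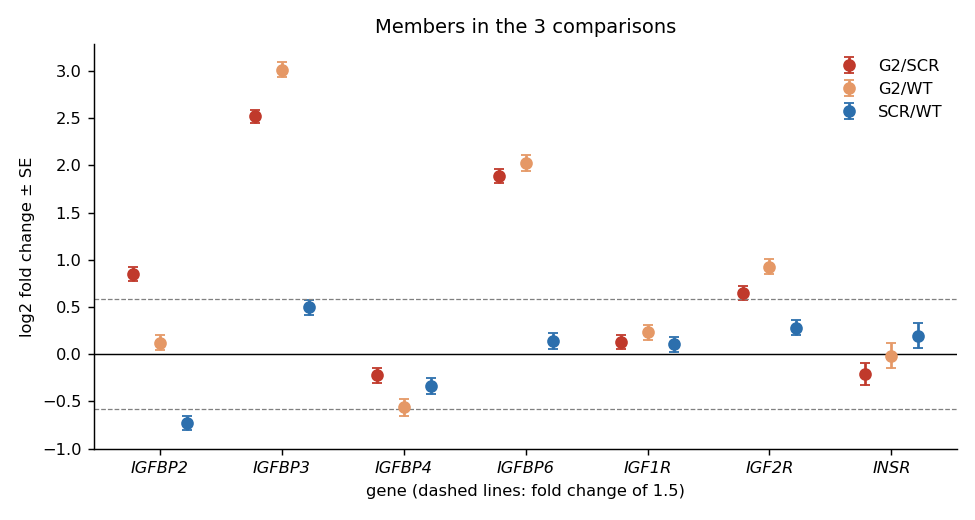
Log2 fold changes ± SE (vertical axis) of 7 members in G2/SCR, G2/WT and SCR/WT, with dashed lines at a fold change of 1.5. IGFBP7 is left out since its fold changes depend on the value added before the logarithm. IGFBP3 (2.52 and 3.02) and IGFBP6 (1.88 and 2.02) are highest in both comparisons of G2, and IGFBP2 is set apart by SCR.

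The 2 WT libraries differed from each other more than those of G2 or SCR, with a mean chi-square per gene of 17.0 between them against 2.54 to 5.78 between replicates of the other lines. The standard errors share 1 spread over the lines. With only the 2 lines compared, the error was 0.04 in place of 0.07 for IGFBP2 in G2/SCR. For PRPF40B in G2/WT it was 0.10 in place of 0.09. Of the 7 members above 0 in WT, the 4 binding proteins were higher in WT replicate 1 and the 3 receptors in WT replicate 2. The log2 differences between these 2 libraries ranged from 0.29 for IGFBP2 to -0.45 for INSR, so a difference of this size between a line and WT is within the spread of the WT libraries. The differences of IGF1R and INSR in G2/WT and SCR/WT were no larger than this, while those of IGFBP3, IGFBP6 and IGF2R in G2/WT were.

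Beyond the members, 94 genes of the insulin and IGF pathway were listed, of which 74 passed the filter on low values. In G2/SCR 18 were higher and 11 lower (39.2% called, beside 26.9% of all genes), in G2/WT 18 higher and 7 lower (33.8%, beside 29.9%) and in SCR/WT 10 higher and 4 lower (18.9%, beside 16.3%). The median log2 fold change of the 74 genes was 0.09 for G2/SCR (-0.01 over all genes) and 0.16 for G2/WT (0.0049 over all genes). The lists too were drawn up with earlier results of these data known.

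Of the 5 ligands, IGF1 and INS were listed at 0 in all libraries. IGF2, the fetal growth factor that neuroblastoma cells can make themselves, was the ligand with a level, at 151, 98.5 and 155 normalized counts in G2, 70.4, 51.6 and 55.9 in SCR and 1571 and 1389 in WT. Both edited lines were far below WT. IGF2 fell in SCR/WT (log2 fold change -4.63 ± 0.21 SE, limma, adjusted p = 4.86e-08) and against WT in G2 (-3.47 ± 0.21, adjusted p = 6.28e-08), and it rose in G2/SCR (1.16 ± 0.19, adjusted p = 0.000285). IGF2 was thus 24.9-fold lower in SCR and 11.0-fold lower in G2 than in WT, so that SCR was near G2, whereas for IGFBP3 and IGFBP6 SCR was near WT. INS-IGF2 and IGF2-AS overlap IGF2, and reads in an overlap could belong to either gene. INSL3 was at 8.45 ± 10.2, 33.3 ± 19.1 and 11.5 ± 0.523, and was called lower in G2/SCR (-2.59 ± 0.92, limma, adjusted p = 0.0338) although the libraries of G2 overlapped with those of SCR and of WT. INSL5 reached 5.10 in 1 SCR library and was at 0 in all others.

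Of the list of 8 other binding proteins and relatives, which also holds the acid-labile subunit IGFALS, 3 passed the filter. HTRA1, a secreted serine protease with an IGFBP domain, was at 609 ± 36.1 in G2, 77.7 ± 11.2 in SCR and 23.3 ± 9.14 in WT and rose in both comparisons of G2 (log2 fold changes 2.96 ± 0.21 and 4.70 ± 0.23, limma, adjusted p = 1.86e-07 and 9.03e-09). HTRA1 was also called higher in SCR/WT (1.74 ± 0.23). KAZALD1, an IGFBP-related secreted protein, rose by 0.67 ± 0.16 and 0.95 ± 0.18 (adjusted p = 0.00419 and 0.000837). IGFBPL1, the IGFBP-like protein, fell in G2/WT (-1.26 ± 0.05) and SCR/WT (-0.95 ± 0.05) from 23310.0 ± 130.7 in WT, and was named after its values were seen. In the CCN family, whose members also hold an IGFBP domain, only CCN1 of 6 passed the filter. CCN1, a matrix protein that cells make in response to growth factors and stretch, was at 3368, 3037 and 2651 in G2, 395, 371 and 457 in SCR and 160.2 and 128 in WT and rose in G2/SCR (2.88 ± 0.12, adjusted p = 2.02e-09) and G2/WT (4.38 ± 0.13, adjusted p = 1.63e-10). CCN2 was listed at 0 in every library.

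Of the proteases that cut binding proteins and their inhibitors, 8 of 10 were tested, of which 4 were higher and 2 lower in G2/SCR, and 4 higher and 1 lower in G2/WT. PLAT, the tissue-type plasminogen activator, was at 5135 ± 226 in G2, 574 ± 28.0 in SCR and 439.7 ± 7.23 in WT (log2 fold changes 3.16 ± 0.07 and 3.54 ± 0.08, limma, adjusted p = 1.64e-11 and 1.08e-11). PLAU, the urokinase-type activator, was at 494 ± 35.0, 55.5 ± 4.96 and 10.2 ± 3.86 and also rose in SCR/WT (2.38 ± 0.24, adjusted p = 1.8e-05). ADAM9, a membrane protease reported to cut IGFBP5, rose by 2.56 ± 0.09 and 1.95 ± 0.10 in the comparisons of G2 and was called lower in SCR/WT (-0.61 ± 0.10). PAPPA, the metalloprotease that cuts IGFBP4, was at 263, 259.5 and 261 in G2, 41.8, 57.2 and 62.7 in SCR and 37.2 and 42.7 in WT (2.28 ± 0.19 and 2.68 ± 0.21, adjusted p = 9.82e-07 and 6.81e-07). STC2, which inhibits PAPPA and was named after its values were seen, fell by 1.34 and 0.84 on the log2 scale (adjusted p = 4.82e-05 and 0.00332). These are RNA values and do not measure the cutting of a binding protein.

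Of the other receptors and the mannose 6-phosphate sorting genes, 1 of 7 was called in each comparison of G2 (14.3%, beside 26.9% and 29.9% of all genes). That gene was LRP1, an endocytic receptor that also binds IGFBP3, at 407 ± 69.7, 161 ± 31.2 and 133 ± 57.0 (1.33 ± 0.22 and 1.65 ± 0.25, limma, adjusted p = 0.000367 and 0.000153). Of 24 adaptors and feedback regulators, 6 were higher and 4 lower in G2/SCR and 6 higher and 3 lower in G2/WT (41.7% and 37.5%, beside 26.9% and 29.9% of all genes). SH2B3, an adaptor that dampens cytokine and growth factor signals, rose (2.02 ± 0.06 and 1.48 ± 0.07), as did SOCS2, a feedback inhibitor of growth hormone signalling (0.97 ± 0.06 and 0.66 ± 0.06), and SHC1, which links the receptors to RAS (0.59 ± 0.05 and 0.63 ± 0.06). DOK4, a docking protein of receptor tyrosine kinases, fell, at 2917 ± 131 in G2, 7741 ± 111 in SCR and 14541 ± 148 in WT (-1.41 ± 0.05 and -2.32 ± 0.06, adjusted p = 7.22e-10 and 3.41e-11). DOK4 was also called lower in SCR/WT (-0.91 ± 0.06).

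The 27 genes of the PI3K-AKT-FOXO-mTOR list were all tested, and 3 were higher and 4 lower in G2/SCR and 3 higher and 1 lower in G2/WT, so that 25.9% and 14.8% were called, beside 26.9% and 29.9% of all genes. EIF4EBP1, a brake on translation that mTOR releases, fell in both, at 5781 ± 69.3 in G2, 10437 ± 264 in SCR and 15091.5 ± 2737 in WT (-0.85 ± 0.08 and -1.37 ± 0.09, limma, adjusted p = 2.36e-06 and 9.81e-08). Of the FOXO transcription factors, which act downstream of AKT, FOXO6 (1.59 ± 0.19 and 2.43 ± 0.21) and FOXO1 (1.28 ± 0.37 and 1.17 ± 0.41) rose, with means in G2 of 220.1 and 36.8 normalized counts. FOXO6 was at 73.6 in SCR and 40.0 in WT and was also called higher in SCR/WT (0.85 ± 0.21). FOXO1 was at 14.5 in SCR and 15.6 in WT. FOXO3 and FOXO4, named after their values were seen, had higher counts and fell in G2/SCR (-0.62 ± 0.10 and -0.94 ± 0.11, adjusted p = 0.00026 and 2.77e-05), with no call in G2/WT (-0.32 ± 0.11 and 0.03 ± 0.13). Of the 3 genes for IGF2 mRNA-binding proteins 2 were tested, and neither was called in G2/SCR. IGF2BP2, named after its values were seen, was called higher in G2/WT, but its libraries were at 8.47, 20.8 and 15.04 in G2 and 0 and 9.93 in WT, which overlap near the floor, and its limma adjusted p was 0.0676.

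**Figure D5:**
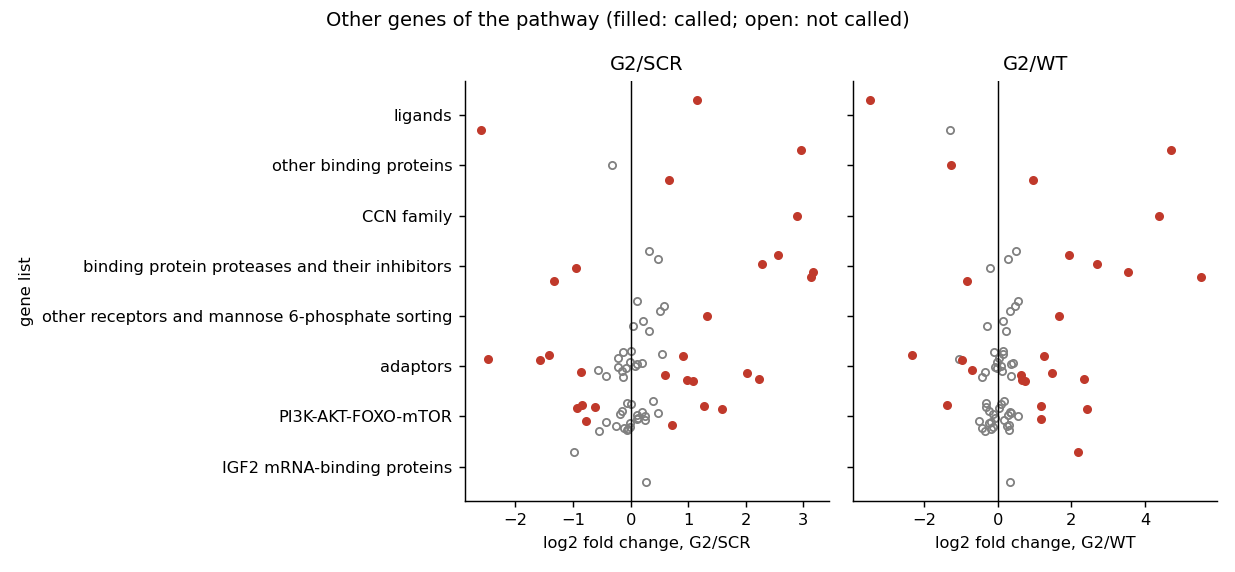
Log2 fold changes (horizontal axes) in G2/SCR and G2/WT of the 74 tested genes of 8 lists of the insulin and IGF pathway (vertical axis), filled where the gene was called and open where it was not. The proteases reach 3.16 in G2/SCR and 5.51 in G2/WT, while 14 of 24 adaptors and 20 of 27 genes of the PI3K-AKT-FOXO-mTOR list are open in G2/SCR.

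The genes nearest in pattern to the 3 members with the widest range of line means were found by the distance between log2 profiles over the 8 libraries, each centred on its own mean, among the 13065 genes whose mean was 100 or more. For IGFBP3 they were CRYM (distance 0.298), FAM89A (0.317) and MB21D2 (0.321). For IGFBP6 they were PPIC (0.239), KIF1C (0.242) and SH3GLB1 (0.2496). For IGFBP7 they were CASP4 (2.10), IFITM3 (2.198) and TAFA5 (2.31), all several times farther away than for the other members. The 8 points share libraries and lines, so the distances describe a likeness of levels only.

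The genes beside the members on the chromosome were compared with them. Among the 5 tested genes on each side of IGFBP3 the log2 fold changes in G2/SCR ran from -2.24 to 0.67, against 2.52 for IGFBP3. TNS3, the nearest named gene among those tested, lies 1354 kb away and was at -0.31. IGFBP1 (chr7:45888488-45893660) lies nearer but was listed at 0 in every library and was not tested. Around IGF2R they ran from -1.62 to 0.49, against 0.65, and around IGFBP2 from -0.68 to 0.62, against 0.85. In G2/WT 2 of the 10 neighbours were above IGF2R, up to 4.04 against 0.93, and 2 were above IGFBP2. The neighbours of INSR had a median of -0.21 in G2/SCR, the same as INSR. Around IGFBP6 they ran from -0.62 to 2.49, and 2 of the 10 were above the 1.88 of IGFBP6. Its neighbours SPRYD3 and SOAT2 were at 0.77 and 2.37 in G2/SCR and 0.93 and 1.29 in G2/WT, the second of them from a mean of only 22.1 normalized counts. The nearest genes of IGFBP4 were TOP2A (0.28) and SMARCE1 (0.03), those of IGF1R were IRAIN (0.02) and SYNM (-0.02), and those of INSR were ZNF557 (-0.45) and ARHGEF18 (-0.25). POLR2B, which overlaps the end of IGFBP7, was at 0.09.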

How the data were processed

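RNA-seq values of 8 libraries were taken from 1 table. Per the labels and the study's methods, the authors sequenced polyadenylated RNA in paired reads of 75 bases, mapped them to hg38 with STAR 2.7.5a, counted them on FAST DB genes with featureCounts (Subread 1.5.0) and normalized with DESeq2. The deposited values are a signal per gene, the normalized count in each library, with replicates kept apart and no scaling to gene length. They were whole multiples of 1 step per library for 100% of values (within 0.1), which gave the recovered counts. The floors account for counting error alone. All 8 columns had a sample.

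The design had limma as its main test: limma 3.58.1 (R 4.3.3, lmFit and eBayes with a trend) on log2(normalized count + 1), 1 mean per line, on genes with a mean of at least 10, checked on simulated data. The simulation gave every line the same spread and changed few genes. It therefore does not cover the wider spread of the WT libraries or the many genes called here. For low genes, fold changes on this scale depend on the value added and can be narrower or wider than the ratio of the means. Libraries at 0 can widen them, as for IGFBP7 in G2/SCR (fitted log2 fold change 3.71, ratio of the means 9.68). DESeq2 1.42.0 and edgeR 4.0.16 on recovered counts were alternatives for G2/SCR. The members and lists were chosen with earlier results of these data known. Named were the members, PRPF40B, the ligands, up to 4 genes per list called in both comparisons of G2 in the same direction by the smallest p, the nearest flanking genes and the 3 nearest in pattern to 3 members; exceptions are marked. Exon lengths came from GENCODE and promoters from RefSeq. The columns of the authors' comparisons were not used.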

Additional observations from a re-analysis of the deposited data

How the results depend on the processing

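The log2 fold changes of PRPF40B, and those of members in the comparisons in which they were called, kept their sign under all alternatives. Some that were not called changed sign, and IGFBP2 in G2/WT went from 0.12 to -0.03 without WT replicate 2. On leaving out each library in turn, INSR ran from -0.24 to 0.21 in G2/WT and from -0.03 to 0.42 in SCR/WT. IGF1R ran from -0.04 to 0.25 in SCR/WT. Titles give the lines the same replicate numbers, but deviations of same-numbered G2 and SCR libraries correlated at -0.126, 0.046 and 0.147, so the numbers were not taken to pair the libraries. With the title number as a replicate block 5059, 5644 and 3057 genes were called in G2/SCR, G2/WT and SCR/WT and with the library number 5089, 5626 and 2844. IGFBP4 then also passed the call in G2/WT. With only genes at a mean of at least 100, 3088, 3633 and 1723 genes were called in G2/SCR, G2/WT and SCR/WT. At a fold change of at least 2 the calls were 2951, 3175 and 1491 genes, 18 pathway list genes in G2/SCR and 7 in SCR/WT, and 3 members in G2/SCR and 0 in SCR/WT. With the same total in all libraries 23 pathway list genes were called in SCR/WT. Leaving out each library in turn gave 0 to 1 members called in SCR/WT, with 0 only without WT replicate 1, which leaves WT with 1 library that is assumed to vary like the others. In G2/WT it gave 4 to 5, with IGFBP4 added without G2 replicate 3 or WT replicate 2. With the longest transcript as length, IGFBP2 made up 55.9%, 53.3% and 61.8% of the binding protein pool in G2, SCR and WT. DESeq2 and edgeR called the same 5 members in G2/SCR. Depth limits genes at low counts, such as IGFBP7, INSL3 and IGF2BP2.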
